A study of Mus musculus with 6 samples.

Results

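Histone genes fall into replicative genes, whose products package newly made DNA, and variant genes, whose products replace them at particular places or times. Counts were taken for every row whose symbol begins Hist1h, Hist2h, Hist3h or Hist4h (the replicative class) and for H2afx, H2afz, H2afv, H2afy, H2afj, H3f3a, H3f3b, H1f0 and H1fx (the variant class). Of 35976 rows in the count table, 78 met this rule, 69 replicative and 9 variant. A row was kept with at least 15 counts over the 6 libraries, which left 34 histone genes, 25 replicative and 9 variant. The libraries came from RAW264.7, a mouse macrophage-like cell line. There were 3 control libraries from cells given no treatment and 3 from cells exposed to itaconate, a dicarboxylate that activated macrophages make in their mitochondria, for 24 h. The labels name neither the dose or form of the itaconate nor a vehicle, and nothing in them says that replicates were separate cultures, so the spread behind each p-value may be technical. TRIzol-extracted RNA went into 3′ libraries of the Lexogen QuantSeq FWD kit, which primes on poly(A).

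Most cellular mRNAs end in a poly(A) tail. Replicative histone mRNAs instead end just past a short stem-loop, which is bound by the stem-loop binding protein (Slbp) and cut with the help of the U7 ribonucleoprotein, and they accumulate mainly while DNA is copied in S phase. Many variant histone genes carry introns, and their mRNAs are polyadenylated and made through the cell cycle. A library primed on poly(A) is therefore built to count polyadenylated transcripts of a replicative gene and not its stem-loop ended mRNA. This is background and was not measured here. Counts were not divided by transcript length, so they compare libraries for a gene rather than levels of different genes.

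Control libraries held 5202626 to 6098934 counts and itaconate libraries lay within that range, so a floor of 3 counts corresponds to between 0.487 and 0.565 CPM (the count scaled to library size, with TMM factors). The 10 macrophage markers were all tested, with a summed level of 8867 to 10031 CPM in control and 6828 to 7144 CPM in itaconate libraries. Marker lists of epithelium, B cells, fibroblasts, neutrophils and mast cells, and T and NK cells had 0 genes with enough counts to test, and none of these 5 lists summed to more than 2.10 CPM in any library. Mitochondrial transcripts took 4.81% ± 0.444 of control and 5.04% ± 0.375 of itaconate counts (SD, n = 3).

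The stem-loops are shown first, because they mark the mRNA ends that a poly(A)-primed library is not built to count. GENCODE vM21 transcripts (GRCm38, the assembly that mm10 names) were searched after the stop codon for 16 bases made of a perfect 6-base stem that starts with GG and a 4-base loop that starts with TT. The stem is in capitals, and U is written as T.
Hist1h1c: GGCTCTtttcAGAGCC
Hist1h4d: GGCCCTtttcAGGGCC
Hist1h2bb: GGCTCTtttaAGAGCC
Hist1h4i: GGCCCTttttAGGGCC
Hist2h2ac: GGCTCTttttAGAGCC
H2afx: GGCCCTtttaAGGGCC

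Such a stem-loop was found in 44 of the 69 replicative rows, in 17 of the 25 replicative genes that passed the count limit (68%) and in 1 of the 9 variant genes. It lay 24 to 61 bases after the stop codon in the replicative rows, with a median of 34. Anywhere in a coding transcript, it was found in 130 of 21877 protein-coding genes (0.594%), and 45 of those 130 were rows of the histone rule. The form shown for Hist1h1c (chr13:23739512-23739527, plus strand) was carried by 26 rows, among them Hist1h1d, Hist1h1e, Hist1h2ab, Hist1h2ae, Hist1h2be, Hist1h2bj and Hist1h2bm. The form shown for Hist1h4d (chr13:23581950-23581965, plus strand) was carried by 7 rows, which include Hist1h4c, Hist1h4f, Hist1h4h and Hist4h4. The H4 genes Hist1h4i (chr13:22040966-22040981, minus strand) and Hist2h4 shared a form of their own. The forms of Hist1h2bb (chr13:23747203-23747218, plus strand) and Hist2h2ac (chr3:96220418-96220433, minus strand) were each the form of that gene alone among the counted genes.

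The variant gene with a stem-loop was H2afx (chr9:44335240-44335255, plus strand), which encodes H2A.X, the H2A that is phosphorylated around DNA breaks. Its annotated transcript runs on for 822 bases past the loop, with 0 copies of the poly(A) signal AATAAA there. Running on by at least 100 bases was annotated for 10 of the 17 replicative genes with a loop that were counted, and for 12 of the 27 with a loop that fell under the count limit. Of the 10, Hist1h1e, Hist1h4c, Hist1h4d and Hist1h4i also had 0 copies of AATAAA past the loop. Running on is a trait of the annotation and does not show that a transcript is polyadenylated. No match says only that these letters were not found after an annotated stop codon. Hist1h2al, with 0 annotated coding transcripts, could not be searched in this way.

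The annotation places 20 of the 25 replicative genes on chromosome 13, of which 19 lie between 21722044 and 23751598. Another 4 lie on chromosome 3 between 96220361 and 96270132, and Hist4h4 lies on chromosome 6. The 9 variant genes are spread over 7 chromosomes. Of the replicative genes, H1 gave 4 of 6 rows with enough counts, H2A 6 of 19, H2B 7 of 19 and H4 8 of 13. Replicative H3, the core histone of 12 rows, gave 0. All 9 variant genes passed.

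Replicative genes held a small share of histone counts in both groups. Their share was 9.93%, 7.55% and 7.42% in the control libraries and 10%, 9.22% and 8.23% in the itaconate libraries, so the groups overlapped. The means were 8.30% ± 1.42 and 9.15% ± 0.887 (SD, n = 3). Summed replicative levels were 171.6 ± 29.8 CPM in control and 160.8 ± 7.50 CPM in itaconate libraries. Summed variant levels were 1895 ± 50.4 and 1602 ± 98.6 CPM, with every itaconate library below every control library. Of all counts in a library, replicative genes took 0.0174% ± 0.00290 and 0.0158% ± 0.000921, and variant genes 0.193% ± 0.00754 and 0.157% ± 0.00801. Without the 8 replicative genes whose annotated last 300 bases are mostly shared with transcripts of other genes, the replicative share was 4.57% ± 0.393 and 5.29% ± 0.709. Of these 8, Hist1h1e had the most counts (2326 over the 6 libraries), and the next, Hist1h4h, had 96. The end of Hist1h1e is shared with models that overlap it at its own locus.

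Each gene was then compared between the groups with edgeR's quasi-likelihood test over all 10636 genes that passed the low-count filter, and was called at an adjusted p (Benjamini-Hochberg) under 0.05. Across all genes tested, 11.2% were called lower and 10.7% higher in itaconate libraries, with a median log2 fold change of -0.01 and quartiles of -0.29 and 0.27. Among the 9 variant genes, 4 were called lower, 1 higher and 4 neither, with a median of -0.20. Of the 25 replicative genes, 12 passed the filter, which asks for about 10 counts in at least 3 libraries. Of those 12, 2 were called lower, 1 higher and 9 neither, with a median of -0.47 and a range of -2.57 to 2.51. Of the 12, Hist1h1b, Hist1h1d, Hist1h2ae and Hist2h2bb had 10 or more counts in control libraries alone and Hist1h2al in itaconate libraries alone. These 5 passed through the group where they were high, so the counts and the median describe the tested genes only. Leaving out 1 library put the replicative median between -0.29 (without control replicate 1) and -0.78 (without control replicate 2) and the variant median to as low as -0.33 (without control replicate 2). The low-count filter was run again each time, so the genes behind these medians can differ from those of the full fit. At a mean of at least 5 CPM, the replicative median was -0.22 and the variant median -0.43, the reverse order. Of the replicative genes, only Hist1h1e, Hist1h2bc and Hist2h2be reached that mean. No order of the classes is drawn from these medians. The difference between the classes was not tested.

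**Figure D1:**
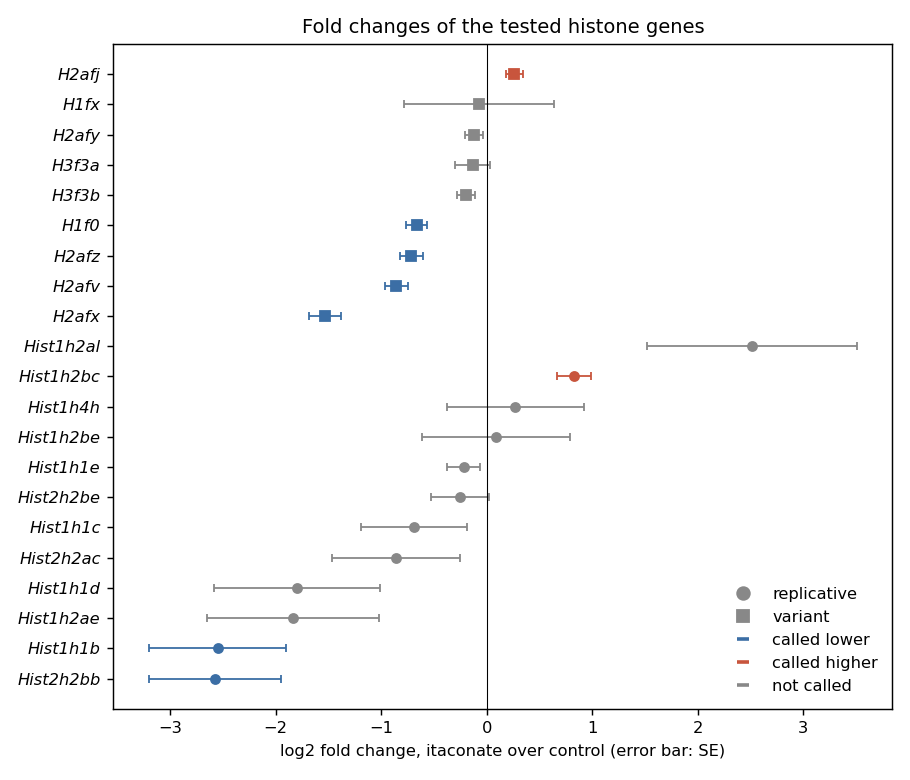
Log2 fold change of itaconate over control for the 21 tested histone genes, circles for replicative and squares for variant genes, with SE as the error bar and colour for the call. H2afx sits at -1.53 among the variant genes, and the replicative genes spread from -2.57 (Hist2h2bb) to 2.51 (Hist1h2al), with wide errors at low counts.

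The largest fall among the variant genes was that of H2afx. It was at 81.7, 73.9 and 91.4 CPM in the control libraries and at 30.1, 25.2 and 29.9 CPM in the itaconate libraries. The groups lay far apart, and the log2 fold change was -1.53 ± 0.15 (SE, adjusted p = 1.50e-11, edgeR's quasi-likelihood test). H2afx (gene model chr9:44334694-44336077, a single exon) overlaps an exon of Gm44335 on the opposite strand, and the strand setting of the counting is not given in the sources used here.

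Both genes of H2A.Z, the H2A variant found at promoters and regulatory elements, fell. H2afv (H2A.Z.2) was at 150.5, 138 and 147 CPM in control and at 70.2, 88.8 and 81.7 CPM in itaconate libraries. The groups did not overlap, with a log2 fold change of -0.85 ± 0.11 (SE, adjusted p = 4.06e-08, edgeR's quasi-likelihood test). H2afz (H2A.Z.1) was at 158, 161 and 174 CPM in control and at 93.0, 91.0 and 116 CPM in itaconate libraries. Again every itaconate library was below every control library, by -0.72 ± 0.11 in log2 (SE, adjusted p = 9.24e-07, edgeR's quasi-likelihood test). The last 300 annotated bases of H2afz share 34.4% of their 50-base stretches with transcripts of other genes, so part of its reads could have been assigned elsewhere, whereas H2afv shares 0%.

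H1f0, which encodes the linker histone H1.0 that is known to build up in cells that stop dividing, was lower after itaconate. Its levels were 307, 308 and 351 CPM in control and 168, 227 and 215 CPM in itaconate libraries. The groups were separate, with a log2 fold change of -0.66 ± 0.10 (SE, adjusted p = 3.70e-07, edgeR's quasi-likelihood test). An exon of Gm49544 overlaps H1f0 on the opposite strand. The other linker variant, H1fx (H1.10), was near the limit of what these libraries could count, with 17, 8 and 12 counts in control and 13, 9 and 11 in itaconate libraries. Its log2 fold change of -0.07 had a 95% interval from -1.47 to 1.32, so neither a rise nor a fall within that interval was detectable at this depth.

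The variant gene that rose was H2afj, which encodes H2A.J. It was at 438, 425 and 458 CPM in control and at 500.0, 531 and 551 CPM in itaconate libraries. All itaconate values were above all control values, by 0.26 ± 0.08 in log2 (SE, adjusted p = 0.0137, edgeR's quasi-likelihood test). The call was lost without control replicate 2 (adjusted p = 0.0772), without itaconate replicate 2 (0.0596) and with library totals in place of TMM (0.0502).

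The genes of macroH2A1 and H3.3 were not called. H2afy (macroH2A1, an H2A with a large extra domain) was at 313, 288 and 285 CPM in control and 280.0, 267 and 270.2 CPM in itaconate libraries. These groups did not overlap either, but the log2 fold change was -0.12 ± 0.09 (SE, adjusted p = 0.372, edgeR's quasi-likelihood test), with a 95% interval from -0.29 to 0.05. H3f3a and H3f3b encode the same H3.3 protein, the H3 that is deposited outside S phase. H3f3a was at 48.2, 45.2 and 42.5 CPM in control and 32.0, 43.9 and 47.9 CPM in itaconate libraries, and H3f3b at 368, 426 and 401 and at 327, 329 and 387 CPM.

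For both H3.3 genes the groups overlapped. The log2 fold changes were -0.13 ± 0.17 for H3f3a (SE, adjusted p = 0.638) and -0.20 ± 0.09 for H3f3b (SE, adjusted p = 0.105, edgeR's quasi-likelihood test). H3f3b was called lower without itaconate replicate 3 (adjusted p = 0.0178) and with library totals in place of TMM (0.0283). H3f3a shares 40.8% of the stretches of its last 300 bases with transcripts of 132 other genes. Over all variant genes, 5 of 9 had every itaconate library below every control library and 1 of 9 above, against 17.9% and 17.6% of all genes tested.

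**Figure D2:**
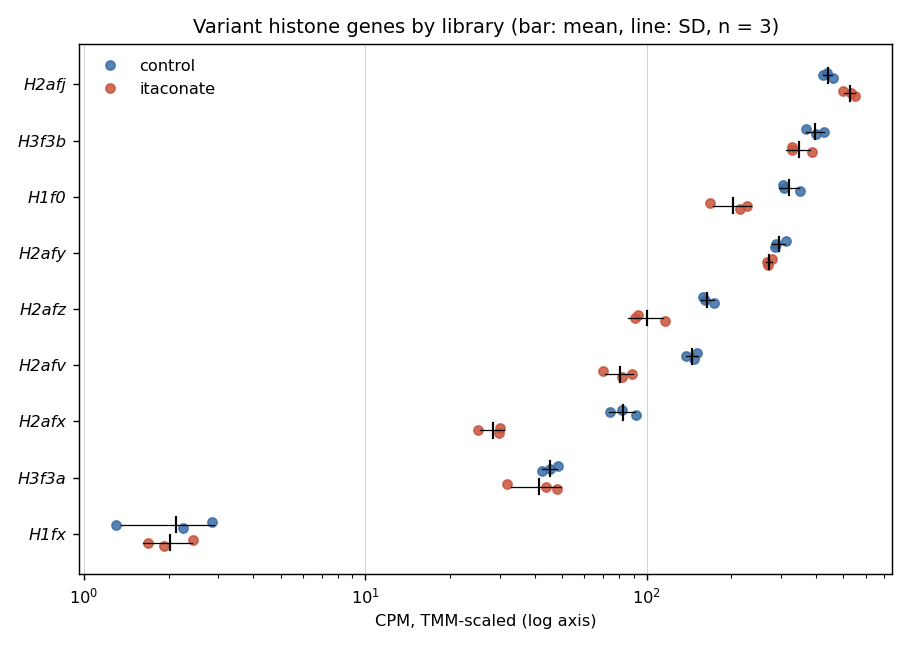
Level of each variant histone gene in CPM (TMM-scaled, log axis), with 1 point per library, a bar at the mean and a line for the SD (n = 3 per group). H2afx, H2afv, H2afz and H1f0 have separate groups with itaconate lower, H2afj has itaconate higher, and H3f3a, H3f3b and H1fx overlap. H2afy also has separate groups with itaconate lower but was not called.

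Among the replicative genes, 2 were called lower. Hist1h1b (linker histone H1.5, chr13:21779883-21780625, minus strand) had 23, 32 and 45 counts in control and 6, 3 and 7 in itaconate libraries, or 3.85, 5.20 and 8.40 CPM against 1.13, 0.561 and 1.22 CPM. Each itaconate library was below each control library, with a log2 fold change of -2.55 ± 0.65 (SE, adjusted p = 0.00254, edgeR's quasi-likelihood test). Without control replicate 3, where its count was highest, the adjusted p was 0.0607. Hist2h2bb (a replicative H2B, chr3:96269752-96270132, plus strand) had 42, 41 and 27 counts in control and 2, 6 and 9 in itaconate libraries, or 7.03, 6.66 and 5.04 CPM against 0.377, 1.12 and 1.57 CPM. The groups were again separate, with a log2 fold change of -2.57 ± 0.63 (SE, adjusted p = 0.00163). Hist2h2bb overlaps an exon of Gm42743 on the same strand and one of Gm20628 on the opposite strand, so its count is uncertain where the models overlap.

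The replicative gene called higher was Hist1h2bc, an H2B gene with an annotated intron (chr13:23684199-23692908, plus strand). Its counts were 187, 227 and 169 in control and 359, 319 and 286 in itaconate libraries, which are 31.3, 36.9 and 31.5 CPM against 67.6, 59.6 and 50.01 CPM. All itaconate libraries were above all control libraries, by 0.83 ± 0.16 in log2 (SE, adjusted p = 8.64e-05, edgeR's quasi-likelihood test). It shares 3.19% of its last stretches with other transcripts, and the call was kept under each alternative run for it.

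The other replicative genes with the most counts were not called. Hist1h1e (H1.4) was at 98.6, 56.4 and 66.1 CPM in control and 63.3, 70.4 and 56.5 CPM in itaconate libraries. The groups overlapped, with a log2 fold change of -0.22 ± 0.15 (SE, adjusted p = 0.356, edgeR's quasi-likelihood test) and a 95% interval from -0.52 to 0.09. Its annotated end is shared entirely (100%) with the overlapping same-strand models of Hist1h2be and Gm11398, so its count is uncertain, since how such reads were assigned is not given. Hist2h2be (H2B) was at 15.4, 21.8 and 11.6 CPM in control and 10.5, 12.9 and 17.5 CPM in itaconate libraries, with a log2 fold change of -0.25 ± 0.28 (SE, adjusted p = 0.582). Hist1h1c (H1.2) was at 7.70, 5.04 and 4.66 CPM in control and 3.95, 2.62 and 4.20 CPM in itaconate libraries. Here the groups did not overlap, and the log2 fold change was -0.69 ± 0.50 (SE, adjusted p = 0.366).

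Other low-count replicative genes also had separate groups without a call. Hist1h1d (H1.3) had 29, 11 and 13 counts in control against 7, 2 and 5 in itaconate libraries, with a log2 fold change of -1.80 ± 0.78 (SE, adjusted p = 0.0975, edgeR's quasi-likelihood test). Hist1h2ae (H2A) had 13, 15 and 26 counts against 9, 5 and 0, with -1.83 ± 0.82 (SE, adjusted p = 0.105). Hist1h2al (H2A) went the other way, with 4, 0 and 2 counts in control and 11, 10 and 13 in itaconate libraries.

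For Hist1h2al the log2 fold change was 2.51 ± 0.99 (SE, adjusted p = 0.0628), and limma-voom called it (adjusted p = 0.0462). It is also the gene on chromosome 13 that lies away from the large cluster, and 62.5% of the stretches of its last 300 bases occur in transcripts of 21 other genes. Hist2h2ac (-0.86), Hist1h2be (0.09) and Hist1h4h (0.27) had overlapping groups and adjusted p of 0.351, 0.951 and 0.824. In all, 5 of the 12 tested replicative genes had every itaconate library below every control library and 2 had every one above, and 5 of these 7 are genes that passed the filter through 1 group. The shares over all genes tested were 17.9% and 17.6%, and nothing is read from the difference.

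**Figure D3:**
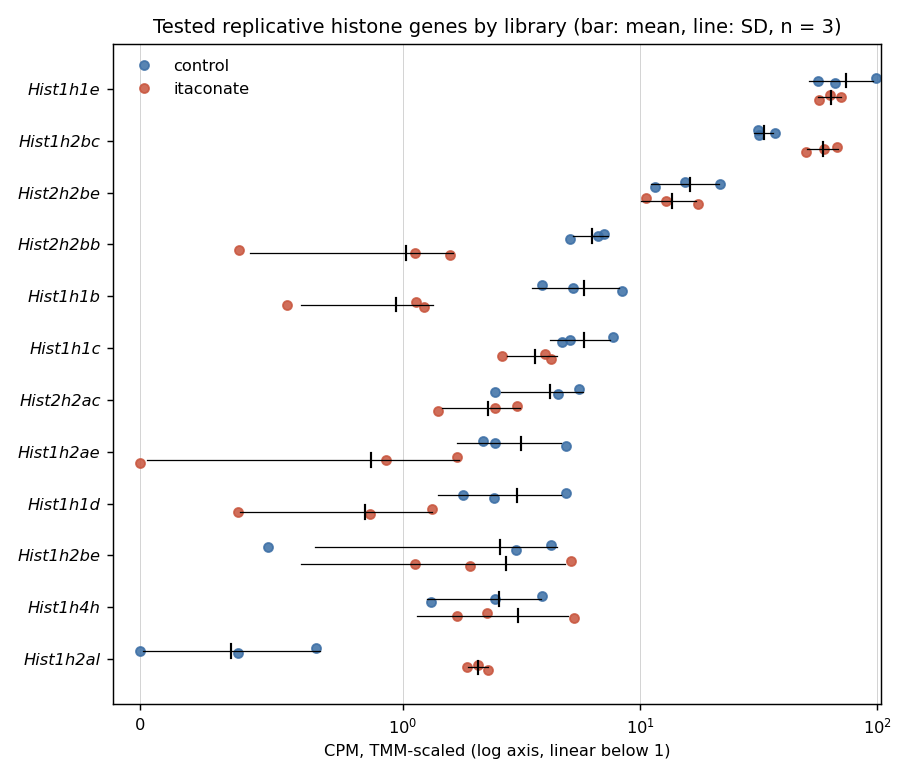
Level of each of the 12 tested replicative histone genes in CPM (TMM-scaled, log axis that is linear below 1), with 1 point per library, a bar at the mean and a line for the SD (n = 3 per group). Hist2h2bb and Hist1h1b have all itaconate points below 2 CPM and all control points above, and Hist1h2bc has itaconate above control.

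The replicative total was made up of parts with unlike values. Hist1h1e, Hist1h2bc and Hist2h2be together were at 123.2 ± 19.4 CPM in control and 136.1 ± 10.5 CPM in itaconate libraries, and held 71.9% ± 3.11 and 84.6% ± 3.21 of replicative counts (SD, n = 3). The other 22 replicative genes summed to 362, 230 and 254 counts in control and to 136, 107 and 163 in itaconate libraries. In CPM these sums were 48.4 ± 11.7 and 24.7 ± 4.33, and the groups did not overlap. The sums include genes kept through their counts in 1 group, such as Hist1h1b, Hist2h2bb and Hist1h4d through control and Hist1h2al through itaconate. Nothing is therefore read from the gap. This division was made after the values were seen and was not tested.

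The 13 replicative genes left out by the filter held 124, 67 and 69 counts in control and 25, 39 and 56 in itaconate libraries. Among the H4 genes, Hist1h4d summed to 43 counts in control and 3 in itaconate libraries, Hist1h4i to 39 and 10, Hist4h4 to 26 and 3, and Hist2h4 to 22 and 6. Each of these reached the limit of 15 counts in control and not in itaconate libraries. Hist1h4c (19 and 19), Hist1h4k (13 and 10) and Hist1h4f (7 and 11) had like sums in both groups. H4 is the core histone with the least sequence variety, and it has no variant gene in this set.

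Among the H2A genes left out, Hist1h2ak had 8, 1 and 8 counts in control and 0 in all itaconate libraries, so it met the limit of 15 counts through control alone. Hist1h2ab summed to 20 counts in control and 12 in itaconate libraries, and Hist1h2af to 19 and 11. Of the H2B genes, Hist1h2bj summed to 19 and 9, Hist1h2bb to 8 and 12, and Hist1h2bm to 8 and 14. Hist1h2ab, Hist1h2af and Hist1h2bj too reached 15 counts in control and not in itaconate libraries.

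Counts in these rows were uneven within a group. Hist1h2bb had all 8 of its control counts and all 12 of its itaconate counts in replicate 3, and Hist1h2bj had its 19 control counts in replicate 2. A row with 0 in a library and 8 or more in another of the same group occurred for 7 of 14 replicative genes with 15 to 60 counts (50%) and for 815 of 2117 rows of the table in that range (38.5%). With a limit of 15 counts over the 6 libraries in place of the low-count filter, 12671 genes were fitted and 9.5% were called lower. That fit called 3 of the 25 replicative genes lower and 1 higher, where the full fit called 10.7% of all genes tested higher. The gene added was Hist1h4d (log2 fold change of -3.59 ± 1.34 SE, adjusted p = 0.0483, edgeR's quasi-likelihood test). Hist1h4d met the limit through control, with 27, 4 and 12 counts there and 3, 0 and 0 in itaconate libraries. Nothing is therefore read from this call.

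**Figure D4:**
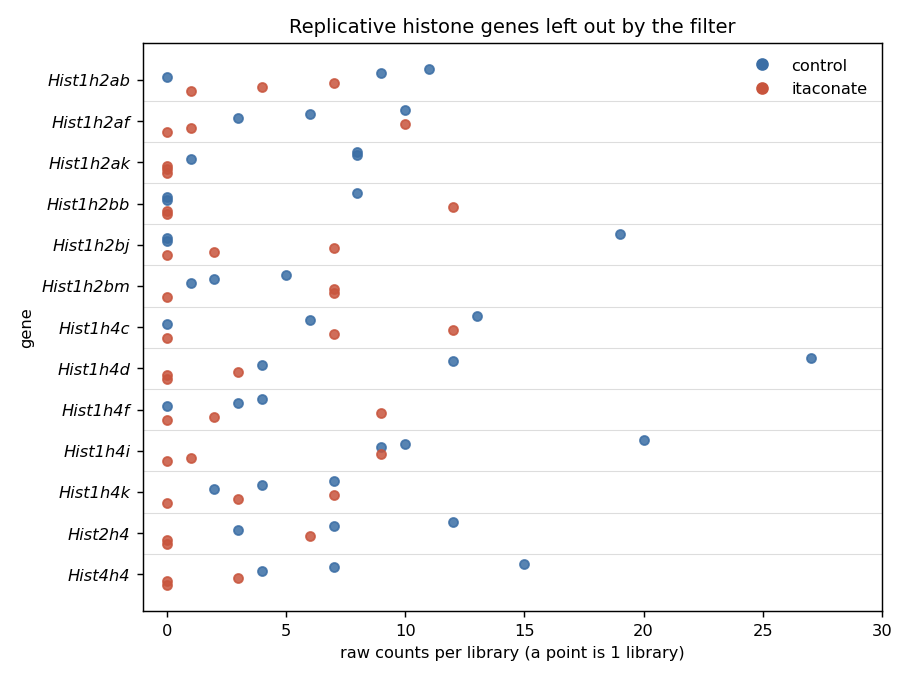
Raw counts per library of the 13 replicative histone genes left out by the low-count filter, with 1 point per library and the groups in different colours. Hist1h4d and Hist4h4 reach 27 and 15 counts in control and at most 3 in itaconate libraries, and Hist1h2bb and Hist1h2bj have their counts in few libraries.

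Below the limit of 15 counts lay 44 replicative rows, 13 of them at 0 in every library and 31 with 1 to 14 counts. They summed to 61, 39 and 76 counts in control and to 17, 14 and 27 in itaconate libraries. Of the 31, 17 (54.8%) had counts in control libraries alone, 9 of them in 1 library, and 1 (3.23%) in itaconate libraries alone. Over the 5049 rows of the table with 1 to 14 counts, these shares were 39.8% and 29.0%. The 12 replicative H3 rows are all among the 44 under the limit, with Hist1h3b at 0 in every library. The H3 rows summed to 31, 14 and 28 counts in control and 10, 9 and 5 in itaconate libraries. Their levels summed to 4.23 ± 1.69 and 1.48 ± 0.534 CPM (SD, n = 3), and the groups did not overlap. Of the 12 H3 rows, 7 had more counts in control, 5 of them in control alone. All 13 counts of Hist1h3a came from 1 control library. Hist1h3e (3 against 6), Hist2h3b (2 against 5) and Hist2h3c2 (2 against 4) had more counts in itaconate libraries. Nearest to the limit were Hist1h4n outside it, with 14 counts, and Hist1h2ak inside it, with 17.

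The annotated ends of the tested replicative genes differed. Of the 12, 5 had no stem-loop found, namely Hist1h1b, Hist1h2al, Hist1h2bc, Hist2h2bb and Hist2h2be. Hist1h2al has 0 annotated coding transcripts, so it could not be searched. A model that ends near its stop codon also leaves few bases to search, so no trait of these genes is read from this. Another 5 ran on past the loop (Hist1h1c, Hist1h1d, Hist1h1e, Hist1h2ae and Hist1h2be), and Hist1h4h and Hist2h2ac ended near it. Over all 69 rows, 22 ended near the loop and held 430 counts in all, and 22 ran on past it and held 2944. The other 25 had no loop found and held 2498. Without Hist1h1e, Hist1h2bc and Hist2h2be, these sums were 430 counts over 22 rows, 618 over 21 and 438 over 23.

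Promoters were searched in both classes and are printed for 3 of the genes called lower. RefSeq (GRCm38.p6) gave the 250 bases before the annotated start for 21 replicative and 8 variant genes. These windows were searched on both strands for 3 motifs, none of which contains another: TATAAA, known as a core promoter element, the element CCAAT, and the octamer ATTTGCAT, which Oct-1 binds and which is known from H2B promoters. Each motif was counted at any position in the window, so a match to TATAAA need not be a core promoter element. TATAAA was found in 11 of 21 replicative promoters (52.4%), in 1 of 8 variant promoters and in 14.3% of all 27025 genes. CCAAT was found in 16 of 21 (76.2%), in 5 of 8 and in 37.5% of all genes. ATTTGCAT was found in 7 of 21 (33.3%), in 1 of 8 and in 1.81% of all genes, and 4 of the 5 replicative H2B promoters held it.

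The promoters of 3 genes that were called lower are printed 5′ to 3′ on the strand of the gene, with matches to the motifs on either strand in capitals (CCAAT reads ATTGG when it lies on the other strand).
Hist1h1b: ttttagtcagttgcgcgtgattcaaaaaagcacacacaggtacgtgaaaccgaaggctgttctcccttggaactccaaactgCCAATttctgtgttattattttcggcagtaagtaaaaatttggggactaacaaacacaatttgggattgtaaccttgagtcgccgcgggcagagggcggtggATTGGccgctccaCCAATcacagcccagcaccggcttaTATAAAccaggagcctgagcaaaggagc
Hist2h2bb: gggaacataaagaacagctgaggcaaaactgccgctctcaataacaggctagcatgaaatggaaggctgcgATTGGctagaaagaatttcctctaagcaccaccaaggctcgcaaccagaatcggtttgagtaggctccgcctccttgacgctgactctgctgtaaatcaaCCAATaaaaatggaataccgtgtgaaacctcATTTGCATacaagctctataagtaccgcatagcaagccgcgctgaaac
H2afv: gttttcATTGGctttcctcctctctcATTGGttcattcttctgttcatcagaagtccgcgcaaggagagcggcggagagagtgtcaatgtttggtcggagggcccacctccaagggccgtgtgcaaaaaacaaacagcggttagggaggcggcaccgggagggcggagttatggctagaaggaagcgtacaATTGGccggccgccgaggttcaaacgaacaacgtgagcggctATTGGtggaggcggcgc

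Hist1h1b (chr13:21780626-21780875, minus strand) held CCAAT 3 times and TATAAA 1 time. Hist2h2bb (chr3:96269450-96269699, plus strand) held CCAAT 2 times and the octamer, with no TATAAA in the window. The H2A.Z promoter of H2afv (chr11:6444444-6444693, minus strand) held CCAAT 4 times and neither other motif. Of the other genes called lower, H1f0 held none of the motifs, H2afz held CCAAT 2 times and neither other motif, and H2afx had no entry. The H1f0 window (chr15:79027962-79028211) ends before the GENCODE start of the gene at 79028450, and the bases between were not searched. A match describes letters in the window and was not tied to binding of any factor in these data.

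Genes that make and finish replicative histone mRNA were called lower more often than higher. Of 26 genes listed for histone transcription and 3′ processing, 24 were tested, 10 were called lower and 1 higher (11.2% and 10.7% of all genes tested were), with a median log2 fold change of -0.28. Slbp, the stem-loop binding protein, was too low to test, at 1.70 ± 0.835 CPM in control and 0.970 ± 0.355 CPM in itaconate libraries. Npat, the activator of replicative histone transcription, was at 29.8 ± 3.42 and 27.0 ± 3.65 CPM (adjusted p = 0.685, edgeR's quasi-likelihood test). Srrt (ARS2), which links the cap-binding complex to RNA processing, fell from 155 ± 7.76 to 88.2 ± 1.51 CPM (adjusted p = 3.55e-08).

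The genes Snrpe and Snrpg encode Sm proteins that U7 shares with the splicing ribonucleoproteins. Their log2 fold changes were -0.46 ± 0.12 (SE, adjusted p = 0.00213) and -0.50 ± 0.13 (SE, adjusted p = 0.00421, edgeR's quasi-likelihood test). Upf1, a helicase of histone mRNA decay and nonsense-mediated decay, fell from 21.2 ± 3.12 to 11.1 ± 0.940 CPM (adjusted p = 0.00499). Ncbp1, the large cap-binding subunit, rose from 77.8 ± 4.05 to 98.2 ± 2.22 CPM (adjusted p = 0.0344). Without itaconate replicate 1 the list had 5 genes called lower. The call of Ncbp1 was lost with library totals (adjusted p = 0.0825) and without any library other than control replicate 3 (0.0673 to 0.112).

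Histone chaperones carry new histones to DNA, and many of their genes were lower. Of 32 genes listed, 31 were tested, 20 were called lower and 0 higher, against 11.2% and 10.7% of all genes tested, with a median of -0.44. At an unadjusted p under 0.05, edgeR's quasi-likelihood test also had 0 higher, as did DESeq2 and limma-voom at their adjusted p. Asf1b, which hands H3 and H4 to the replication-coupled chaperone CAF-1, fell from 39.4 ± 3.35 to 6.74 ± 1.47 CPM (adjusted p = 1.85e-12). Of the CAF-1 subunits, Chaf1a fell from 35.8 ± 2.41 to 8.77 ± 2.36 CPM (adjusted p = 1.11e-09) and Chaf1b from 28.7 ± 5.52 to 17.4 ± 1.95 CPM (adjusted p = 0.0117). The call of Chaf1b was lost without control replicate 3 (adjusted p = 0.114) and without itaconate replicate 2 (0.0703).

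Chaperones of the variants were also represented. Daxx, which deposits H3.3 together with Atrx, fell from 73.2 ± 5.68 to 52.0 ± 1.27 CPM (adjusted p = 0.00594, edgeR's quasi-likelihood test), and Dek, an H3.3-binding chromatin protein, from 349 ± 12.5 to 178 ± 33.1 CPM (adjusted p = 7.43e-11). Hira, the other H3.3 chaperone, was at 16.3 ± 4.97 and 13.2 ± 4.58 CPM (adjusted p = 0.517). Hjurp, the chaperone of the centromeric H3 variant CENP-A, fell from 68.5 ± 7.25 to 24.3 ± 0.535 CPM (adjusted p = 1.98e-10). Cenpa itself, which the histone rule does not take, fell from 70.0 ± 5.86 to 30.01 ± 3.88 CPM, with a log2 fold change of -1.22 ± 0.16 (SE, adjusted p = 1.87e-08). Of the 11 variant genes outside the rule that the table lists, Cenpa was the 1 that was tested.

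Genes of S phase were lower in the same libraries. Of 25 listed, 23 were tested, 21 were called lower and 0 higher (0 also at an unadjusted p under 0.05 in edgeR and at the adjusted p of DESeq2 and limma-voom), with a median log2 fold change of -1.69. Over all genes tested, the shares were again 11.2% and 10.7%. Lig1, the ligase that joins lagging-strand fragments, fell from 219.5 ± 33.1 to 50.03 ± 1.75 CPM (adjusted p = 1.04e-20, edgeR's quasi-likelihood test). The helicase subunits Mcm7 (-2.37 ± 0.15), Mcm3 (-1.69 ± 0.13) and Mcm5 (-2.40 ± 0.19) fell as well (log2 fold change ± SE, largest adjusted p = 2.06e-14). The summed level of the list was 1190 to 1353 CPM in control and 408 to 461 CPM in itaconate libraries. Its part in the falls of H2afx, H2afz, H2afv, H1f0, Hist1h1b and Hist2h2bb was not tested, and in bulk libraries fewer cells in S phase and less RNA per cell cannot be told apart.

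**Figure D5:**
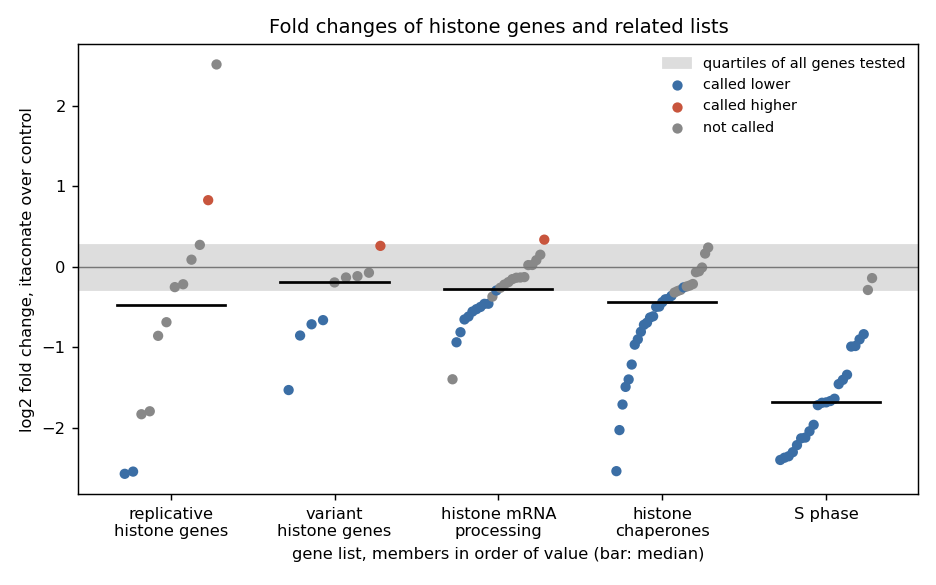
Log2 fold change of itaconate over control for each tested gene of 5 lists, ordered within a list, with a bar at the median, colour for the call and a grey band for the quartiles of all genes tested (-0.29 to 0.27). The replicative median is -0.47, the variant median -0.20, the processing median -0.28, the chaperone median -0.44 and the S phase median -1.69. At a mean of at least 5 CPM the class medians turn order (replicative -0.22, variant -0.43). There the replicative median rests on Hist1h1e, Hist1h2bc and Hist2h2be alone.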

How the data were processed

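The authors deposited 1 table of raw read counts, a row for each gene symbol, with no normalization. STAR 2.7.5a, HTSeq 0.6.1, edgeR and mm10 appear in the submitters' processing notes. The strand setting, the rule for multi-mapped reads and the annotation are choices not given in the sources used here. All 6 count columns were matched to the samples by the names in the header, groups were taken from the treatment label, and 0 columns belonged to another series. The histone genes, the related lists and the marker lists were chosen with earlier results of these data known.

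Genes were kept with edgeR's filterByExpr (minimum count 10, minimum total 15), which left 10636 genes with 99.7% of all counts, with TMM for scaling. Groups were compared by the quasi-likelihood F test of edgeR 4.0.16 in R 4.3.3, with group as the only term, two-sided, with Benjamini-Hochberg adjustment over all genes tested. The SE is the size of the log2 fold change over the root of F, and 95% intervals rest on it. CPM values are TMM-scaled, with SD over 3 libraries. The scripts were tested on simulated data. The floor of 3 counts covers counting error only: without molecular identifiers, reads are not independent molecules.

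Values in every library were given for the variant genes, the 6 replicative genes with the highest mean CPM and the replicative genes called. From each related list, the 4 called genes with the smallest p in each direction were named, with Slbp, Npat, Chaf1a, Chaf1b, Asf1b, Hira, Daxx and Cenpa whatever their values. Other histone genes with per-library values were chosen after their values were seen. Stem-loops, overlaps and shared 50-base stretches came from GENCODE vM21, and promoters from RefSeq, in which 29 of 34 histone genes had an entry. Alternatives were library totals, DESeq2 1.42.0, limma-voom (limma 3.58.1), the replicate number as a block and leaving out each library. Other filters were a total of at least 15 counts alone and a mean of at least 5 CPM.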

Additional observations from a re-analysis of the deposited data

How the results depend on the processing

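Leaving out each library gave 1 to 3 replicative genes called lower against 2 in the full fit, with Hist1h1b lost without control replicate 3, and 0 to 1 variant genes called higher against 1. Because the low-count filter was run again in each of these fits, the genes tested can differ between them. A mean of at least 5 CPM left 0 replicative genes called lower, since Hist1h1b and Hist2h2bb are below that limit. With limma-voom, 2 replicative genes were called higher (Hist1h2al was added), and with library totals 0 variant genes were. The share of replicative counts without genes with shared ends, 4.57% in control and 5.29% in itaconate libraries, was computed after seeing the data. Most of the counts that it leaves out are those of Hist1h1e. The same alternative against the whole genome was not run. Of 241 comparisons of a histone gene between an alternative and the full fit, 234 kept the call, 4 lost it and 3 gained it. The sign changed in 9, each with a library left out, in 6 genes that were not called (H1fx, H3f3a, Hist1h1e, Hist1h2be, Hist1h4h and Hist2h2be). No clear pairing by replicate number was seen in the counts. Same-numbered libraries deviated from their group means with correlations of -0.01, 0.01 and 0.04, and not every library correlated best with its own number. With 3 libraries per group, such values cannot exclude a shared culture or day, which the labels do not give. With the replicate block, 2247 genes were called against 2324, with 2 replicative genes lower, 1 higher, 4 variant genes lower and 1 higher. Depth limits the replicative genes, 13 of which had too few counts to test.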
